A study of Mus musculus with 22 samples.

Results

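The liver response of male mice to TCPOBOP was followed from 3 h to 27 h after a single treatment, gene by gene, as the shift between both times. The shift was the log2 quotient of TCPOBOP over vehicle at 27 h less that at 3 h, from the authors' mean FPKM (fragments per kilobase of gene, scaled to the library's mapped fragments) with 0.1 added to each mean. Each quotient, called the response below, was first centred on its median over genes. The shift was formed for the 10609 of 24197 genes of the authors' deposited table whose mean reached 1 FPKM in any of the 4 groups. Mroh2a was the last gene inside this limit at 1.00002 FPKM and Fam105a the first outside it at 0.999989 FPKM.

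The mice were CD-1 (ICR) males, 7 weeks old on receipt, and none carried a transgene or deletion per the labels. They were injected in the morning with TCPOBOP at 3 mg/kg or with the vehicle alone, 1% DMSO in corn oil, and livers were taken in the late morning of the same day (3 h) or of the next day (27 h). Each time had its own vehicle group, so the responses at 3 h and 27 h share no mice. Poly(A) RNA from liver nuclei was sequenced in 2 pools per group, 8 pools in all, with 4 livers per pool at 3 h and 3 livers per pool at 27 h.

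TCPOBOP is an agonist of the constitutive androstane receptor CAR, a nuclear receptor encoded by Nr1i3 and abundant in hepatocytes. Activated CAR enters the nucleus and, with its partner RXR, turns on genes of drug metabolism, above all Cyp2b10. TCPOBOP is also known in mice as a liver mitogen: hepatocytes enter the cell cycle and the liver grows without prior injury. Nuclear RNA holds much newly made transcript and therefore follows transcription more closely than RNA of whole cells.

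The depth, read from the steps of low FPKM values, ran from about 29100000 fragments in the shallower pool of the 3 h vehicle group to 46700000 in the deeper pool of the 3 h TCPOBOP group. For a gene 1 kb long, 0.0107 to 0.0172 FPKM in a group's mean stood for 1 read. The table holds no value per pool, so no spread between pools, standard error or test of the shift could be computed. Differences between the response at 3 h and that at 27 h were not tested, and "called" below means an adjusted p below 0.05 against vehicle in the authors' deposited table. In bulk tissue, fewer cells of a type and less RNA per cell cannot be told apart. The 10 hepatocyte markers summed to 3275 to 4582 FPKM in each of the 4 groups, against 8.57 to 9.38 FPKM for 12 lymphocyte markers.

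Far more genes were called at 27 h than at 3 h, and most early calls were still called a day later. In the 10609 genes, 1.34% were called raised and 0.5% lowered at 3 h, and 8.66% were called raised and 7.52% lowered at 27 h. Of the 142 genes called raised at 3 h, 110 (77.5%) were also called raised at 27 h, where they made up 12% of 919 raised genes. Of the 53 genes called lowered at 3 h, 34 (64.2%) were also called lowered at 27 h, where they made up 4.26% of 798 lowered genes. No gene was called in opposite directions at both times.

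Each called gene was put into a class by its calls and its response sizes. Sustained genes were called the same way at both times: 110 raised (1.04% of the 10609) and 34 lowered (0.32%). Early transient genes were called at 3 h only and had at 27 h at most 0.5 of the earlier response (23 raised, 0.217%, and 13 lowered, 0.123%). Late-only genes were the mirror image, with 698 raised (6.58% of the 10609) and 640 lowered (6.03%). Genes called once that had more than 0.5 of that response at the other time were counted apart as held. They were 9 raised (0.0848%) and 6 lowered (0.0566%) with the call at 3 h, and 111 raised (1.05%) and 124 lowered (1.17%) with the call at 27 h. The classes rest on the same calls and sizes, so their sizes are a description. With an adjusted p below 0.01 the early transient genes numbered 14 raised and 7 lowered, and the sustained lowered genes 15.

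**Figure D1:**
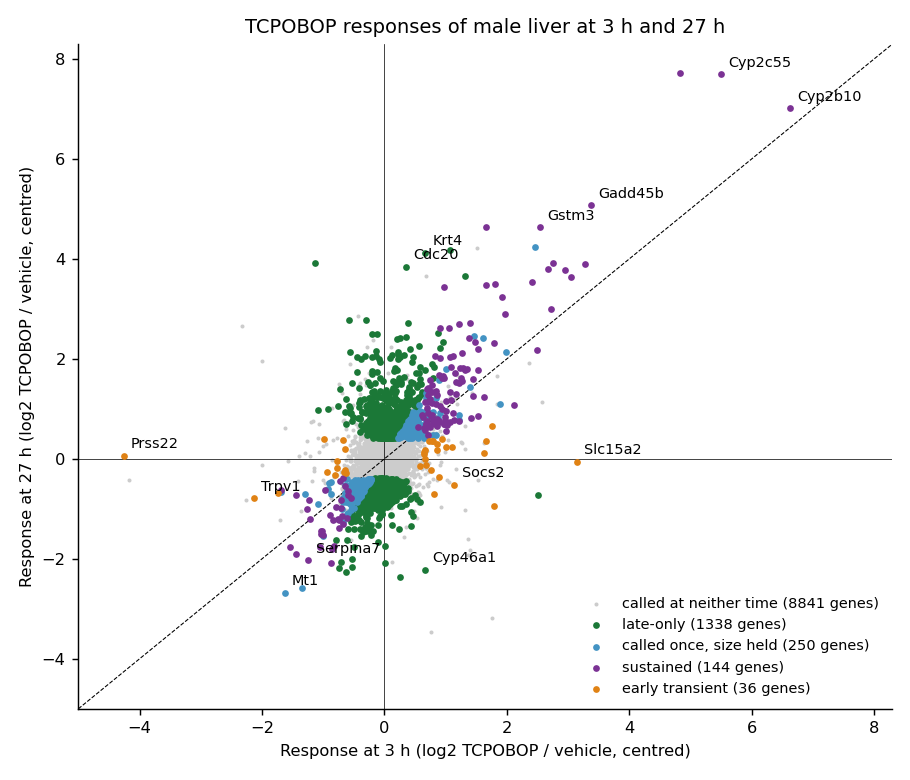
Response at 3 h against response at 27 h (log2 TCPOBOP over vehicle, centred) for the 10609 genes, 1 point per gene and coloured by class; the dashed line marks equal responses. Of the sustained genes, 80 of 110 raised genes lie above the line and 25 of 34 lowered genes below it, away from 0, the 698 raised and 640 lowered late-only genes spread up and down at a 3 h response near 0, and the 23 raised and 13 lowered early transient genes lie beside the horizontal axis.

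Across the 10609 genes the responses at 3 h and 27 h had a Pearson r of 0.446 and a Spearman rho of 0.263, a description across genes that are not independent of each other. The shift reached 2-fold upward in 246 genes (2.32%) and downward in 103 (0.971%). Among the 1768 genes called at either time, 190 (10.7%) shifted upward by 2-fold or more and 63 (3.56%) downward.

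The sustained raised genes were led by enzymes of drug metabolism, and 80 of the 110 had the larger response at 27 h. Their median response was 1.00 at 3 h and 1.34 at 27 h on the log2 scale. Only Cyp3a44 among them shifted downward by 2-fold or more, while 19 shifted upward by that much. Vehicle levels of these genes were slightly higher at 27 h than at 3 h, by a median of 0.19, and TCPOBOP levels by 0.50.

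Cyp2b10, a P450 enzyme gene and the classic CAR target (NM_009999, mm9 chromosome 7, 26682677 to 26711643), was close to its full response by 3 h. Its mean went from 0.755 FPKM in vehicle to 84.9 FPKM with TCPOBOP at 3 h, and from 0.856 to 118 FPKM at 27 h. Its adjusted p was 8.20e-190 at 3 h and 1.19e-145 at 27 h in the authors' deposited table, and its shift was 0.39. Por, which hands electrons to the microsomal P450 enzymes, went from 11.1 to 63.6 FPKM at 3 h and from 19.9 to 86.4 FPKM at 27 h, with a shift of -0.32. Alas1, the first enzyme of heme synthesis, reached similar treated means of 120 and 128 FPKM at the 2 times.

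Another set of sustained genes was called at 3 h and still far from its 27 h level. Cyp2c55, a P450 enzyme gene (NM_028089, mm9 chromosome 19, 39081509 to 39117177), stood at 0.112 FPKM in vehicle and 9.55 FPKM with TCPOBOP at 3 h, and at 0.247 and 68.5 FPKM at 27 h. Its adjusted p was 2.78e-76 at 3 h and 2.29e-267 at 27 h in the authors' deposited table, and its shift was 2.20. Gstm3, a glutathione transferase, went from 2.59 to 15.7 FPKM at 3 h and from 3.91 to 95.6 FPKM at 27 h, a shift of 2.10. These genes gained in the TCPOBOP groups between both times, by 2.82 and 2.59 on the log2 scale, far more than in the vehicle groups (0.62 and 0.49).

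Other P450 genes of this class and Gadd45b, a gene of the stress-inducible GADD45 family, shifted upward too. Cyp3a11 went from 137 to 524 FPKM at 3 h and from 105 to 941 FPKM at 27 h, a shift of 1.31. Cyp1a2 went from 12.4 to 26.2 FPKM and then from 11.1 to 65.6 FPKM, a shift of 1.56. Gadd45b went from 0.874 to 10.1 FPKM and then from 0.579 to 21.7 FPKM, a shift of 1.69. The pseudogene Cyp2c53-ps had the largest shift of the Cyp2c group, 2.89, of which its lower vehicle mean at 27 h (0.43 FPKM against 1.57 FPKM at 3 h) made up 1.74. Close paralogs of the Cyp2c and Cyp3a families share reads, so a value of a single member is uncertain.

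By gene family, the CYP2B and CYP2C list had 7 of 21 members raised and 2 lowered at 3 h, and 9 raised and 4 lowered at 27 h. Its summed level was 366 FPKM in vehicle and 857 FPKM with TCPOBOP at 3 h, and 246 and 1269 FPKM at 27 h. Glutathione transferases went from 3 of 20 raised at 3 h to 10 raised and 2 lowered at 27 h, hydrolases and reductases from 6 of 28 raised to 12, and UGT and sulfotransferases from 5 of 28 to 12. Over all 24197 genes, 0.612% were raised at 3 h and 4.8% at 27 h. Among the genes that joined late were Gstm1 (40.8 to 129 FPKM at 27 h, shift 1.15), Gsta3 (61.9 to 137 FPKM, shift 1.03) and Ugt2b36 (182 to 421 FPKM, shift 1.26). Cyp2a5 and Ces2c joined late as well, at 3.55 to 18.7 FPKM and 0.357 to 2.77 FPKM. Cyp2c65 and Cyp2c66 were listed at 0 FPKM in the 27 h vehicle group and at 0.499 and 0.391 FPKM with TCPOBOP.

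A few genes of cell cycle control were among the sustained raised genes. The 3 described here were chosen after their values were seen. E2f2, a transcription factor of S phase genes, went from 0.366 to 0.808 FPKM at 3 h and from 0.569 to 1.92 FPKM at 27 h. Chaf1b, a subunit of the chromatin assembly factor of replication, went from 0.174 to 0.697 FPKM and then from 0.293 to 1.19 FPKM. Gmnn, whose protein geminin restrains replication licensing, went from 0.678 to 1.72 FPKM and then from 1.72 to 2.85 FPKM. Its vehicle mean at 27 h thus stood at the 3 h TCPOBOP mean. E2f2 and Chaf1b reached 1 FPKM in the 27 h TCPOBOP group alone, so a high mean there is favoured by the choice. Of the G1 entry and S phase lists described below, 1 of 26 and 1 of 47 genes were raised at 3 h, against 0.612% of all genes. Single genes are near that share.

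The 34 sustained lowered genes had a median response of -0.85 at 3 h and -1.20 at 27 h. Their vehicle means were mostly lower at 27 h than at 3 h (27 of 34, median -0.50), with a median of -0.86 for their TCPOBOP means. Serpina7, which encodes thyroxine-binding globulin, had a mean of 4.78 FPKM in vehicle and 1.98 FPKM with TCPOBOP at 3 h, and 2.71 and 0.557 FPKM at 27 h, with adjusted p of 6.60e-06 and 2.81e-12 in the authors' deposited table. Nnmt, nicotinamide N-methyltransferase, went from 2.72 to 0.95 FPKM and then from 1.90 to 0.411 FPKM. Gadd45g was lowered at both times, from 60.6 to 29.6 FPKM and from 41.5 to 14.6 FPKM, while its relatives Gadd45a (6.10 to 17.3 FPKM, then 2.93 to 14.6 FPKM) and Gadd45b rose. Cyp2c69 and Cyp2c40 were lowered at both times, against the direction of the other called Cyp2c genes at 3 h.

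**Figure D2:**
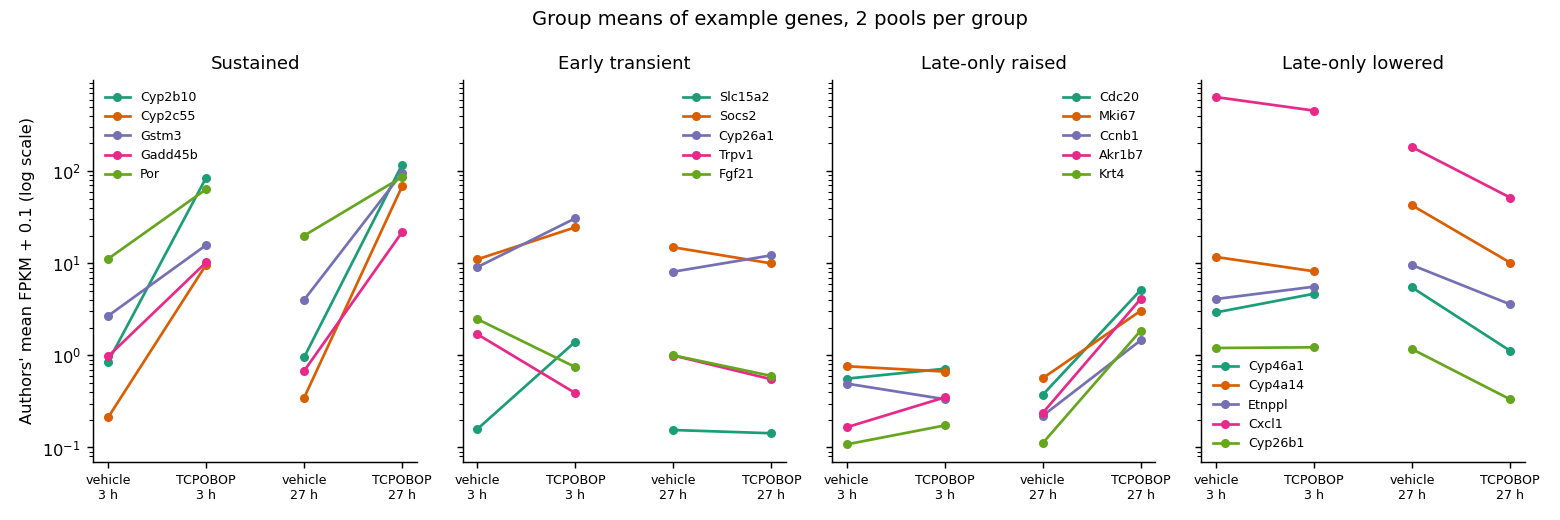
Authors' mean FPKM plus 0.1 (log axis) of 20 genes in the 4 groups, with a line joining vehicle and TCPOBOP of the same time; no spread between the 2 pools of a group is held. Sustained genes rise in both line pairs, early transient genes move in the left pair, and late-only genes move in the right pair.

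The early transient raised genes were few and of mixed function. Their median response was 0.85 at 3 h and 0.14 at 27 h. Slc15a2, a peptide transporter (NM_021301, mm9 chromosome 16, 36750250 to 36785048), had the largest: its mean was 0.0587 FPKM in vehicle and 1.31 FPKM with TCPOBOP at 3 h (adjusted p = 4.70e-05 in the authors' deposited table), and 0.0547 and 0.0427 FPKM at 27 h. Its response went from 3.14 to -0.05. Slc15a2 reached 1 FPKM in the 3 h TCPOBOP group alone and was named for its large response at 3 h. That this mean stood alone above the other groups is therefore favoured by the choice. In females Slc15a2 was not called at 3 h, with a ratio of 0.506 in the authors' deposited table, and it was called lowered at 27 h with a ratio of 0.0632 there.

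Genes of hormone and retinoid signalling were in this class at higher levels. Socs2, a feedback inhibitor of growth hormone signalling, went from 11.0 to 24.5 FPKM at 3 h (adjusted p = 0.0125 in the authors' deposited table) and stood at 14.8 in vehicle and 9.87 FPKM with TCPOBOP at 27 h. Cyp26a1, which degrades retinoic acid, went from 9.0 to 30.8 FPKM at 3 h and stood at 8.01 and 12.1 FPKM at 27 h. Nr1i2, which encodes the pregnane X receptor PXR, a relative of CAR, went from 19.6 to 31.5 FPKM at 3 h and stood at 30.2 and 26.5 FPKM at 27 h. For Nr1i2 the vehicle mean at 27 h was thus close to the 3 h TCPOBOP mean.

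In this class 15 of 23 (65.2%, against 50% of all 10609 genes) had a higher vehicle level at 27 h than at 3 h, which the choice of the class by its quotients favours, by a median of 0.49 over the class, and 17 of 23 stood higher with TCPOBOP at 27 h than with vehicle at 3 h. Etnk2 and A1bg are examples. Etnk2, an ethanolamine kinase, went from 13.8 to 25.1 FPKM at 3 h and stood at 27.7 and 29.8 FPKM at 27 h. A1bg went from 0.243 to 0.966 FPKM and then stood at 1.00 and 1.05 FPKM. For Cyp26a1 and Apol10b the TCPOBOP mean itself was lower at 27 h than at 3 h, with changes of -1.35 and -1.03 on the log2 scale, and for Slc15a2 the change was -3.32.

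The 13 early transient lowered genes had a median response of -0.78 at 3 h and -0.23 at 27 h. Fgf21, a fasting hormone of the liver, went from 2.37 to 0.645 FPKM at 3 h (adjusted p = 5.65e-08 in the authors' deposited table) and from 0.90 to 0.498 FPKM at 27 h, where it was not called. Trpv1, a cation channel gene, went from 1.59 to 0.289 FPKM and then from 0.896 to 0.45 FPKM. Adrb3, a beta-adrenergic receptor, went from 7.79 to 3.90 FPKM at 3 h and stood at 13.4 and 16.8 FPKM at 27 h. Cd163, a scavenger receptor of macrophages and so of Kupffer cells in liver, went from 2.53 to 1.29 FPKM and then from 1.5 to 1.17 FPKM. None of the other 13 Kupffer cell markers was called lowered at either time. Among all 24197 genes 0.256% were lowered at 3 h and 3.65% at 27 h, so no lowered call among 13 is near the background. Prss22 had the largest fall at 3 h, from 1.80 FPKM to a listed 0, and was listed at 0 in both 27 h groups. Prss22 and Trpv1 reached 1 FPKM in the 3 h vehicle group alone and were named for large responses at 3 h. A fall at 3 h is thus favoured by the choice of both genes.

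Late-only genes made up most of the male response. At 3 h the authors' adjusted p was 1 for 639 of the 698 raised and 604 of the 640 lowered genes, with median responses of 0.04 and -0.09. The same p was listed for 9840 of all 10609 genes, so both counts are near the share over all genes. Medians near 0 at 3 h are favoured by the choice of the class, which asks for no call and a small response there. At 27 h the median responses were 0.69 and -0.59. The shift reached 2-fold upward in 163 of the raised genes and downward in 51 of the lowered ones.

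The shift is the change of the TCPOBOP mean between both times less the change of the vehicle mean, and both parts are given for the late-only classes. The classes were chosen by quotients that hold the vehicle means, so a vehicle part opposite to the call is favoured by the choice, and the values describe the classes only. Among the 698 raised genes the vehicle level was lower at 27 h than at 3 h in most, being higher in only 127, with a median vehicle part of -0.34 and a median TCPOBOP part of 0.29. Among the 640 lowered genes the vehicle level was higher at 27 h in 527, with a median vehicle part of 0.35 and a median TCPOBOP part of -0.18. Set against the 3 h vehicle group instead, an alternative added after seeing the data, the TCPOBOP mean at 27 h was above it in 578 of 698 raised genes and in 128 of 640 lowered genes, after centring. What part the vehicle pools of 27 h had in the late-only calls was not tested.

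**Figure D3:**
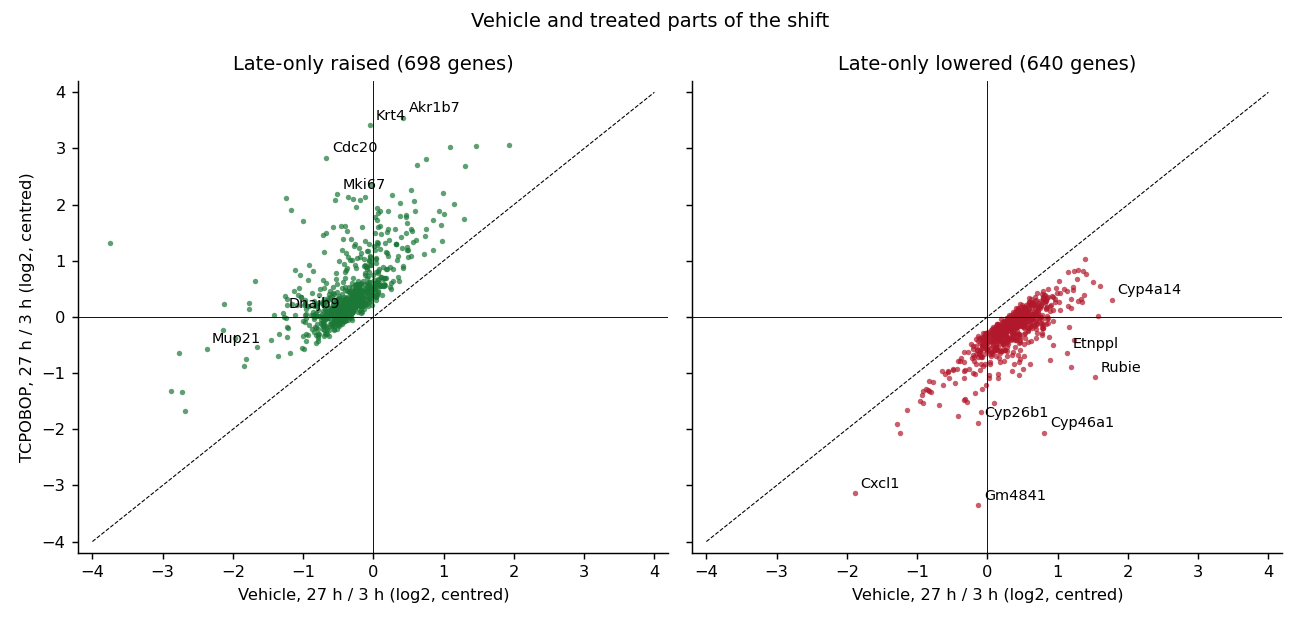
Change of the TCPOBOP mean from 3 h to 27 h against that of the vehicle mean (log2, centred) for the 698 late-only raised and 640 late-only lowered genes, 1 point per gene; the dashed line marks equal change. Raised genes lie above the line and mostly left of 0, lowered genes below it and mostly right of 0, and for Cdc20 the TCPOBOP part was 2.83 and the vehicle part -0.67.

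Genes of mitosis were called together at 27 h. Of the 60 members of the mitosis and G2/M list, none was called at 3 h and 54 were called raised at 27 h, all of them late-only, with none lowered. Over all 24197 genes, 0.612% were raised and 0.256% lowered at 3 h, and 4.8% and 3.65% at 27 h. No call among 60 genes at 3 h is thus near the background. Only 28 of the 60 reached 1 FPKM in any group, 19 of them through the 27 h TCPOBOP group alone, so the count and medians are given over all 60. Their median response was -0.14 at 3 h and 1.51 at 27 h, against 0.06 at 27 h over all genes of the table, and their summed level was 32.3, 31.5 and 32.3 FPKM in the other groups and 79.0 FPKM with TCPOBOP at 27 h. The median TCPOBOP part of the shift was 1.33 and the median vehicle part -0.25. The members not called were Spc25, Spc24, Cenpa, Bub3, Ccnf and Fam64a.

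Cdc20, the activator of the anaphase-promoting complex (NM_023223, mm9 chromosome 4, 118105506 to 118109948), had means of 0.459 and 0.616 FPKM in the vehicle and TCPOBOP groups at 3 h and of 0.273 and 5.03 FPKM at 27 h. Its adjusted p was 1 at 3 h and 1.28e-39 at 27 h in the authors' deposited table, and its shift was 3.50. Mki67, the proliferation marker Ki-67, stood at 0.662, 0.567 and 0.465 FPKM in the first 3 groups and at 2.95 FPKM with TCPOBOP at 27 h. The cyclin gene Ccnb1 stood at 0.394, 0.234 and 0.121 FPKM and then at 1.36 FPKM, and its kinase partner Cdk1 at 0.314, 0.373 and 0.322 FPKM and then at 1.07 FPKM. The spindle kinase gene Aurka stood at 0.163, 0.205 and 0.135 FPKM and then at 1.09 FPKM. These are low levels for liver genes. In each case only the 27 h TCPOBOP mean reached 1 FPKM, so these genes passed that limit through this group alone. They were also named for a large late response or after their values were seen. That the 27 h TCPOBOP mean stood alone above the other groups is therefore favoured by the choice.

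Promoters of such genes are known for a short element, the cell cycle homology region, which the search took as TTTGAA on either strand, and for CCAAT boxes. In RefSeq promoters of GRCm38.p6, from 250 bases before to 50 after the start, TTTGAA was found in 38 of 51 promoters of 48 matched mitosis list genes (74.5%), against 17.9% of all 32851 promoters and 12.1% of those of the 10609 genes. CCAAT was found in 74.5% of them too, against 37.4% of all and 37.9% of those of the 10609 genes. In the S phase list TTTGAA was found in 11.1% of 45 promoters. The 250 bases before the start are shown for Cdc20 (chr4:118437344-118437593, minus strand), Mki67 (chr7:135716380-135716629, minus strand) and Cdk1 (chr10:69352913-69353162, minus strand), as the late-only genes just described, with TTTGAA in capitals.
Cdc20: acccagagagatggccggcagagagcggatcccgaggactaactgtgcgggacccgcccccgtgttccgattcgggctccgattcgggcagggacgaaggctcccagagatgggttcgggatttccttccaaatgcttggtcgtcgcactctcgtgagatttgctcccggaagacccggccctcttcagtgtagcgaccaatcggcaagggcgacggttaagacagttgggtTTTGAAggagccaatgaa
Mki67: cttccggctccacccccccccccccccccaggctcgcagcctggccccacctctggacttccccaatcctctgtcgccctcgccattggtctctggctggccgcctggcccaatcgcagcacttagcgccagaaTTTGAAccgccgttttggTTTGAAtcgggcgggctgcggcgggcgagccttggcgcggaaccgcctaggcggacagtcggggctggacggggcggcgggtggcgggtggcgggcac
Cdk1: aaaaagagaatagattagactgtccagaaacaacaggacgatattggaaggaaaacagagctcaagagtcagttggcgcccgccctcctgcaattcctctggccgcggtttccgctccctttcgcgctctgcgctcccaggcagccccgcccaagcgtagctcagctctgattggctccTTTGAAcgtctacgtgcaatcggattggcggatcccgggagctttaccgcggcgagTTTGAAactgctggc
The element begins 18 bases before the start in Cdc20, 116 and 98 bases before it in Mki67 and 71 and 15 bases before it in Cdk1. A match describes the letters in the window and not the binding of a factor.

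Genes of DNA replication joined at 27 h as well, with smaller responses than the mitotic genes. Of 47 members of the S phase list, 1 was called raised at 3 h (Chaf1b) and 26 were raised and 1 lowered at 27 h, and 11 of the 32 members that reached 1 FPKM did so through the 27 h TCPOBOP group alone. The shares raised over all genes were 0.612% at 3 h and 4.8% at 27 h, and 1 gene at 3 h is near the first. The median response was 0.07 at 3 h and 0.78 at 27 h. Mcm5, of the replicative helicase, stood at 0.37, 0.295 and 0.434 FPKM and then at 1.37 FPKM with TCPOBOP at 27 h, and Pcna, the sliding clamp of the DNA polymerases, at 4.37, 4.66 and 4.76 FPKM and then at 9.19 FPKM. The lowered member was Mcm10, from 14.1 to 7.62 FPKM at 27 h and from 13.4 to 9.59 FPKM at 3 h, far above the level of its partners. TTTCCCGC and TTTGGCGC, 2 forms of the E2F element, were each found in 7 of 45 promoters of 38 matched S phase genes (15.6%), against 1.07% and 0.514% of all promoters and 1.88% and 1% of those of the 10609 genes.

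Of 26 genes of G1 entry, E2f2 was raised at 3 h and 8 were raised at 27 h, with none lowered. The shares raised over all genes were 0.612% at 3 h and 4.8% at 27 h. Ccnd1, the cyclin that carries mitogen signals into G1, went from 1.78 to 2.75 FPKM at 3 h (adjusted p = 0.0644 in the authors' deposited table) and from 0.918 to 2.83 FPKM at 27 h (adjusted p = 1.63e-14 there). Its TCPOBOP means were nearly equal, so that its shift of 1.00 came from the vehicle means. Myc showed the same pattern, at 3.64, 4.18, 1.96 and 4.85 FPKM. Foxm1, a transcription factor of mitotic genes, stood at 0.201, 0.215 and 0.208 FPKM and then at 0.729 FPKM with TCPOBOP at 27 h.

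Other late-only raised genes with large shifts included Krt4, a keratin gene, and Akr1b7, an aldo-keto reductase gene. Krt4 stood at 0.00806, 0.0734 and 0.0115 FPKM and then at 1.76 FPKM with TCPOBOP at 27 h. Akr1b7 stood at 0.0658, 0.25 and 0.137 FPKM and then at 4.01 FPKM. Both genes were named for a large shift, and only their 27 h TCPOBOP means reached 1 FPKM. That these means stood alone above the other groups is therefore favoured by the choice.

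Genes of cholesterol synthesis were called raised at 27 h, where their vehicle levels were also above those of 3 h. None of 24 listed genes was called at 3 h, and 11 were called raised at 27 h with none lowered. The shares raised over all genes were 0.612% at 3 h and 4.8% at 27 h, so that no call among 24 at 3 h is near the background. Vehicle levels of the list were higher at 27 h by a median of 0.69 and TCPOBOP levels by 1.05, and the summed level went from 227 and 255 FPKM at 3 h to 414 and 579 FPKM at 27 h. Sc5d, a late enzyme of the pathway, stood at 23.7 and 30.6 FPKM at 3 h and at 42.3 and 91.6 FPKM at 27 h. Sqle, squalene epoxidase, stood at 3.04 and 3.40 FPKM and then at 4.81 and 8.79 FPKM, while Fdps stood at 15.3, 15.4, 48.9 and 57.1 FPKM with no call. Hmgcs1 was listed at 0 in all 4 groups. In lipogenesis, 2 of 28 genes were raised and 1 lowered at 3 h and 6 were raised and 3 lowered at 27 h. Thrsp, a lipogenic regulator, was raised at both times (35.1 to 66.5 FPKM and 16.7 to 99.0 FPKM).

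Chaperones of the endoplasmic reticulum and some ribosome biogenesis genes were called raised at 27 h, mostly with lower vehicle levels than at 3 h. Of 27 genes of the endoplasmic reticulum stress list, 1 was raised at 3 h (Trib3) and 16 were raised and 1 lowered (Derl3) at 27 h. The vehicle level of this list was lower at 27 h in 23 of 27 members, with a median vehicle part of -0.44 against a median TCPOBOP part of 0.00. Hspa5, the main chaperone of that compartment, stood at 83.6 and 83.5 FPKM at 3 h and at 50.1 and 67.5 FPKM at 27 h (adjusted p = 0.0267 in the authors' deposited table). Calr, calreticulin, stood at 68.7 and 73.2 FPKM and then at 55.2 and 77.9 FPKM. The summed level of the list was 765 and 737 FPKM at 3 h and 524 and 641 FPKM at 27 h. Among 37 ribosome biogenesis genes, 5 were raised at 27 h (Nolc1, Gnl3, Ddx21, Nop58 and Nop2), with a median vehicle part of -0.35 and a median TCPOBOP part of -0.13. The other 32 were not called at either time. In the 10609 genes 8.66% were raised at 27 h, and 5 of 37 is not far above that share.

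The endoplasmic reticulum stress element (ERSE), searched on either strand and added after the values were seen, was found in 9 of 22 promoters of this list (40.9%), against 0.119% of all promoters and 0.168% of those of the 10609 genes. Hspa5 (chr2:34771840-34772089, plus strand, GRCm38.p6) is shown as the main chaperone gene of the list, with the element in capitals, beginning 65 bases before the start.
Hspa5: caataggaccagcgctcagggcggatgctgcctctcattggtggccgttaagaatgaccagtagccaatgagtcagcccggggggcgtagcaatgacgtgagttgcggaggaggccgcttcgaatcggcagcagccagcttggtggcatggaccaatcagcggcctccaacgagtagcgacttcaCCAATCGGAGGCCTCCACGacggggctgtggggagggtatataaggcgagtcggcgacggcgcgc

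Genes known to be higher in male than in female liver also had lower vehicle levels at 27 h. Of 28 on the male-biased list, 1 was raised (Elovl3) and 1 lowered (Susd4) at 3 h, and 11 were raised and 1 lowered (Susd4) at 27 h. Among all 24197 genes, 0.612% were raised and 0.256% lowered at 3 h, and 4.8% and 3.65% at 27 h. The counts of 1 gene are near these shares. Vehicle levels of the list were lower at 27 h in 24 of 28 members, with a median vehicle part of -0.87. The major urinary protein gene Mup20 stood at 171 and 144 FPKM at 3 h and at 28.1 and 45.4 FPKM at 27 h, and Mup7 at 23.1, 32.3, 3.25 and 13 FPKM. Their shifts of 1.01 and 1.56 were upward while their TCPOBOP means were lower at 27 h than at 3 h. Mup genes are near-identical copies and share reads.

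Among the late-only lowered genes were enzymes of sterol, fatty acid and retinoid handling. Cyp46a1, cholesterol 24-hydroxylase (NM_010010, mm9 chromosome 12, 109572591 to 109600444), stood at 2.83 and 4.57 FPKM at 3 h and at 5.36 and 1.02 FPKM at 27 h (adjusted p = 6.14e-13 in the authors' deposited table), a shift of -2.88. Cyp26b1, which degrades retinoic acid, stood at 1.10, 1.12 and 1.07 FPKM and then at 0.234 FPKM with TCPOBOP at 27 h. Cyp4a14, a fatty acid hydroxylase and PPARA target, stood at 11.6 and 8.08 FPKM at 3 h and at 42.5 and 10.1 FPKM at 27 h, so that the highest of the 4 means was the 27 h vehicle mean. In the fatty acid oxidation list 8 of 31 genes were lowered at 27 h and 2 raised (Cd36 and Fabp1), against 1 lowered at 3 h (Fgf21). Over all 24197 genes, 0.256% were lowered at 3 h and 3.65% at 27 h. Gm4841 had the largest downward shift of the called genes, -3.23, through a 3 h TCPOBOP mean of 18.4 FPKM that was not called (adjusted p = 0.34 in the authors' deposited table).

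In the periportal zone gluconeogenesis and urea synthesis are strongest. None of 19 listed genes of this zone was called at 3 h, and 8 were lowered and 1 raised (Cdh1) at 27 h. The shares lowered over all genes were 0.256% at 3 h and 3.65% at 27 h, so that no call among 19 at 3 h is near the background. Pck1, the key enzyme of gluconeogenesis, stood at 143 and 134 FPKM at 3 h and at 200 and 93.7 FPKM at 27 h. Etnppl stood at 3.99 and 5.47 FPKM and then at 9.45 and 3.49 FPKM. Vehicle levels of the list were higher at 27 h by a median of 0.46, and the median change of TCPOBOP levels was -0.15. In the pericentral list, 3 of 20 genes (Ahr, Cyp1a2 and Lect2) were raised at both times, while 2 were lowered at 3 h and 5 at 27 h. Lgr5, a receptor of WNT-responsive pericentral cells, was lowered at both times (0.995 to 0.288 FPKM and 0.764 to 0.266 FPKM).

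Transporters of bile acids and drugs were called in both directions. At 3 h, 3 of 23 were raised (Slco1a4, Abcc2 and Slc15a2) and 1 was lowered (Slc13a5), and at 27 h 5 were raised and 6 lowered. Among all 24197 genes, 0.612% were raised and 0.256% lowered at 3 h, and 4.8% and 3.65% at 27 h. The 1 lowered gene at 3 h is near its share. Abcc2, which exports conjugates into bile, went from 23.2 to 38.3 FPKM at 3 h and from 19.3 to 49.6 FPKM at 27 h. Abcg5, an exporter of sterols into bile, stood at 36.5 and 32.3 FPKM at 3 h and went from 52.9 to 18.6 FPKM at 27 h, a shift of -1.25. Slc13a5, a citrate transporter, was lowered at both times, from 2.57 to 1.42 FPKM and from 2.98 to 0.776 FPKM.

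Immediate early genes are the first targets of growth factor and stress signals. Of 25, none was raised and 1 lowered at 3 h (Fos, from 1.59 to 0.803 FPKM), and 4 were raised and 6 lowered at 27 h. Over all genes the shares were 0.612% raised and 0.256% lowered at 3 h and 4.8% and 3.65% at 27 h, so that no raised gene among 25 at 3 h is near the background. Fosl2 stood at 2.41 and 3.56 FPKM at 3 h and went from 1.44 to 3.91 FPKM at 27 h. Junb stood at 29.0 and 19.4 FPKM and then went from 12.9 to 4.59 FPKM. The growth arrest gene Cdkn1a, an inhibitor of cyclin-dependent kinases, stood at 2.73 and 2.57 FPKM at 3 h and went from 3.81 to 1.4 FPKM at 27 h. Gdf15, a stress hormone gene, stood at 2.24 and 2.86 FPKM and then went from 3.34 to 10.2 FPKM.

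In bile acid synthesis none of 16 genes was called at 3 h, and 1 was raised and 3 were lowered at 27 h. Over all genes 0.612% were raised and 0.256% lowered at 3 h, and 4.8% and 3.65% at 27 h, and the counts of no call at 3 h and of 1 raised gene at 27 h are near these shares. The raised gene was Akr1d1, a steroid reductase, which went from 12.8 to 29.0 FPKM at 27 h and stood at 6.11 and 9.15 FPKM at 3 h. Glucose handling had 1 of 26 genes raised at 3 h (Pygl, glycogen phosphorylase) and 5 raised and 7 lowered at 27 h. Irs1, an adaptor of the insulin receptor, was raised at 27 h from 1.49 to 4.25 FPKM. Igfbp1, which binds insulin-like growth factors, went from 12.7 to 4.08 FPKM at 27 h, and its means of 17.4 and 8.69 FPKM at 3 h were not called. In the NRF2 target list, genes of oxidant defence, none of 20 was called at 3 h, again near the background, and 4 were raised and 2 lowered (Gclc and Hmox1) at 27 h.

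Acute phase genes, which the liver makes in inflammation, were called lowered in part at 3 h and more widely at 27 h. At 3 h 4 of 31 were lowered (Saa3, Serpina3n, Lbp and Socs3), and at 27 h 18 were lowered and 2 raised (Crp and Orm3). Among all 24197 genes, 0.256% were lowered at 3 h, and 3.65% were lowered and 4.8% raised at 27 h. The 2 raised genes are near the last share. The median response was -0.50 at 3 h and -0.61 at 27 h, with a median shift of 0.10, a median vehicle part of -0.80 and a median TCPOBOP part of -0.91. The summed level was 11582 and 9143 FPKM at 3 h and 7316 and 4450 FPKM at 27 h. Cxcl1, a neutrophil chemokine, stood at 638 and 455 FPKM at 3 h and at 183 and 51.7 FPKM at 27 h, whereas Orm3 stood at 10.2, 11.5 and 14 FPKM and then at 47.8 FPKM.

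The metallothionein genes Mt1 and Mt2, whose proteins bind zinc, kept a lower mean with TCPOBOP at both times and were called at 27 h only, which put them among the held genes. Mt1 stood at 227 and 74.0 FPKM at 3 h (adjusted p = 0.206 in the authors' deposited table) and at 311 and 46.5 FPKM at 27 h (adjusted p = 1.30e-07 there). Mt2 stood at 243 and 96.6 FPKM and then at 383 and 61.2 FPKM. Both genes had lower TCPOBOP means at 27 h and higher vehicle means. The promoter of Mt2 (chr8:94172368-94172617, plus strand, GRCm38.p6) is shown with the cores of the metal response element, TGCGCNC or TGCACNC on either strand, in capitals.
Mt2: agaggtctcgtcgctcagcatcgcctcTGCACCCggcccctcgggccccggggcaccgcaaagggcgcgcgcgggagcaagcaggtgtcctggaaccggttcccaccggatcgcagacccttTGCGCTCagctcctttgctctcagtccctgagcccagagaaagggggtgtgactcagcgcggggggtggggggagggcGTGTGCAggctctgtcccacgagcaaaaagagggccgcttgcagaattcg
The matches begin 223, 128 and 50 bases before the start. Each core was found in 4 of 7 promoters of the metallothionein and zinc list (57.1%), against 15.4% and 12.6% of all promoters and 25.8% and 12.3% of those of the 10609 genes.

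Of 37 nuclear receptors and liver transcription factors, 33 of which reached 1 FPKM, 2 were raised and none lowered at 3 h. At 27 h 4 were raised and 3 lowered. In the 10609 genes 1.34% were raised and 0.5% lowered at 3 h, and 8.66% and 7.52% at 27 h. The counts at 27 h are thus near the background. Nr1i3, which encodes CAR, stood at 155 and 135 FPKM at 3 h and at 174 and 104 FPKM at 27 h, where it was called lowered with an adjusted p of 5.57e-05 in the authors' deposited table. Ahr, the aryl hydrocarbon receptor, was raised at both times, from 4.85 to 8.89 FPKM and from 6.16 to 12.8 FPKM. Short binding elements of nuclear receptors, AGGTCA and AGTTCA on either strand, were found in 16.5% and 15.7% of 115 promoters of 86 matched sustained raised genes, against 16.3% and 14% of all promoters and 13.2% and 10.1% of those of the 10609 genes.

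Clock genes were called both ways at 27 h, 5 of 22 raised and 5 lowered, and Per1 was lowered at both times. Among all 24197 genes, 4.8% were raised and 3.65% lowered at 27 h, and 0.256% were lowered at 3 h. The 1 lowered clock gene at 3 h is near the last share. Per3 stood at 2.76, 2.85, 2.21 and 4.17 FPKM, and Nfil3 at 17.7, 17.4, 26.1 and 11.6 FPKM. Both times were taken in the same part of the morning, yet 305 of the 10609 genes differed by 2-fold or more between the vehicle groups of 3 h and 27 h after centring, and 369 between the TCPOBOP groups.

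**Figure D4:**
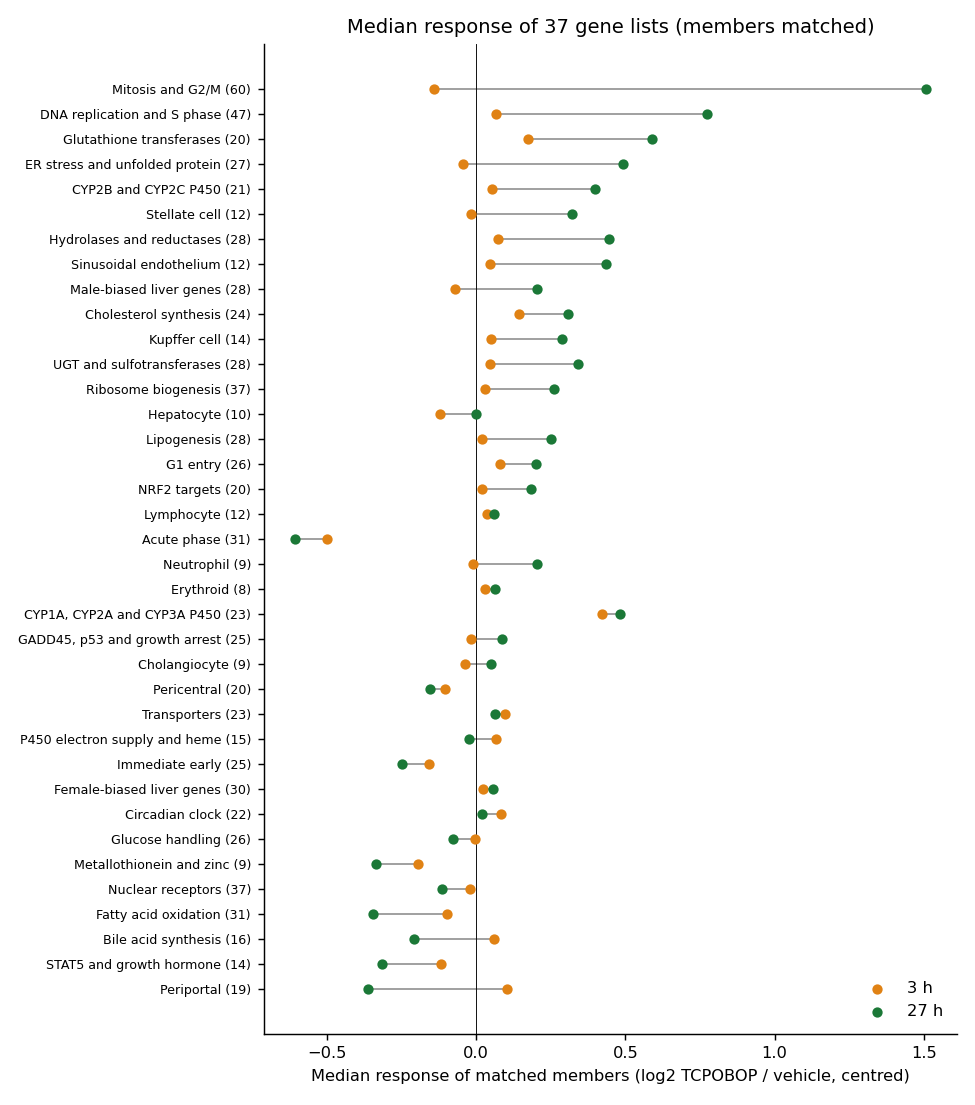
Median response of 37 gene lists at 3 h (orange) and 27 h (green), log2 TCPOBOP over vehicle and centred, over all matched members (numbers in brackets), ordered by median shift. The mitosis list moves farthest, from -0.14 to 1.51, and the periportal list moves downward, from 0.10 to -0.36.

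Markers of other liver cells were called in small numbers, with the endothelial list the most. Of 12 markers of sinusoidal endothelium, 6 were called raised at 27 h (Cdh5, Flt1, Pecam1, Tek, Oit3 and Kdr) and none at 3 h, with a median response of 0.44 at 27 h and summed levels of 153, 152, 161 and 174 FPKM in the 4 groups. Emr1 was raised among 14 Kupffer cell markers at 27 h, and Hgf and Rgs5 among 12 stellate cell markers, against 4.8% of all genes and 8.66% of the 10609; the single Kupffer cell gene is near these shares. No marker of lymphocytes, neutrophils or erythroid cells was called at either time, and the globin genes Hbb-b2 and Hba-a2 were listed at 0 throughout. Only 4 of 12 lymphocyte, 4 of 9 neutrophil and 3 of 8 erythroid markers reached 1 FPKM in any group. No call among so few genes is near the background. The part of the endothelial markers in the late-only results was not tested.

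The classes were then read in libraries that had not formed them: female mice given the same dose at 3 h and 27 h, with 2 pools per group, and male mice studied 3 h after PCN at 50 mg/kg, an agonist of PXR in mice, with 3 pools per group and a vehicle group of their own. Of the 110 sustained raised genes, 89 were called raised in females at 3 h (background in the 10609 genes 2.51%) and 92 at 27 h (7.04%), with none lowered. PCN raised 63 of them (10.9%) and lowered 6 (9.05%). Cyp2c54 and Gstt3, sustained in both sexes, had PCN ratios of 0.95 and 0.882 in the authors' deposited table, each with an adjusted p of 1.

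The late-only genes of males were read the same way. In females at 27 h, 319 of the 698 raised genes were called raised and 4 lowered, with a median response of 0.69, and 280 of the 640 lowered genes were called lowered (5.58%) and 1 raised, with a median of -0.63. In females at 3 h, 71 of the raised genes were raised and 68 of the lowered genes were lowered (1.79%), with medians of 0.21 and -0.22. The female vehicle groups of the 2 times were also compared, with 1490 of 10667 genes apart by 2-fold or more. After PCN, 105 late-only raised genes were raised (15%) and 66 lowered (9.46%), and the median response was -0.02. In the 10609 genes PCN raised 10.9% and lowered 9.05%, so the 66 lowered genes are near the background. Of the late-only lowered genes PCN lowered 129 (20.2%) and raised 83 (13%), with a median response of -0.15.

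In the mitosis list 15 of 60 genes were raised in females at 3 h and 10 at 27 h, with none lowered. Over all 24197 genes, 1.26% were raised and 0.839% lowered in females at 3 h, and 3.49% and 2.86% at 27 h. Mki67 had a ratio of 3.03 at 3 h and 1.89 at 27 h in females in the authors' deposited table, with adjusted p of 1.30e-05 and 0.125. After PCN 10 of the 60 were lowered and 1 raised (over all genes 4.55% and 5.22%), and Mki67 was lowered with a ratio of 0.402 there. Akr1b7, late-only in males, was raised in females at both times, with ratios of 29.1 and 29.8 in the authors' deposited table, and by PCN with 44.0, while Ccnd1 was raised in females with 3.06 and 5.53. Differences between the sexes were not tested.

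In females 8 of the 23 early transient raised genes were called raised at 3 h and 1 lowered (C730036E19Rik), and 5 of the 34 sustained lowered genes were called lowered at 3 h and 20 at 27 h. Of the 13 early transient lowered genes, Fgf21 and Trpv1 were lowered in females at 3 h, and 6 were lowered in females at 27 h. Among these 6 were Fgf21 and Adrb3, with ratios of 0.344 and 0.164 in the authors' deposited table. Of the early transient raised genes 3 (13%) were raised in females at 27 h. In the 10609 genes 2.51% were raised and 1.79% lowered in females at 3 h, and 7.04% and 5.58% at 27 h. PCN lowered 8 of the 13 early transient lowered genes (against 9.05% of the 10609) and raised 1, with a median PCN response of -0.83. Across genes the male and female shifts had a Pearson r of 0.397 and a Spearman rho of 0.436, which is a description only.

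**Figure D5:**
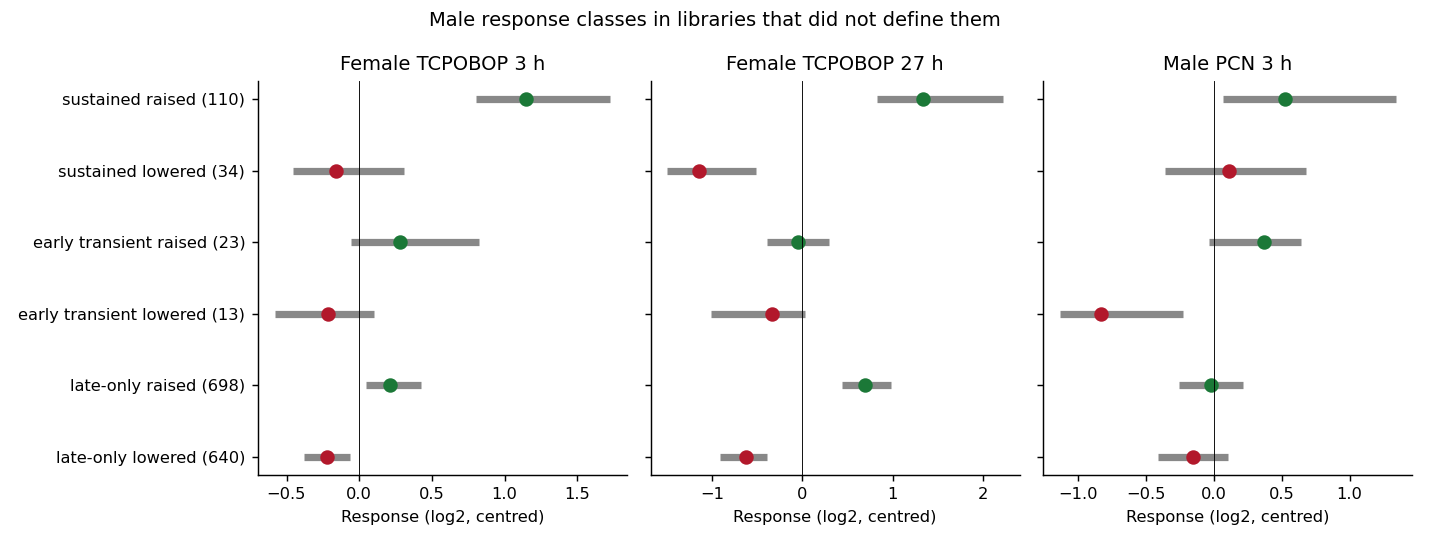
Responses of the male classes in female mice at 3 h and 27 h and in male mice 3 h after PCN (log2 treated over vehicle, centred); points are class medians, grey bars span the quartiles of the genes, and numbers the genes per class. Late-only classes are at 0.69 and -0.63 in females at 27 h and at -0.02 and -0.15 after PCN, and sustained raised genes are at 1.15 and 1.34 in females.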

How the data were processed

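The series holds 22 pools of nuclear poly(A) RNA from liver, of which the 8 male pools of the TCPOBOP set are described here. Per the submitters' processing notes, the authors used mm9, TopHat2, HTSeq 0.6.1p1, featureCounts 1.4.6-p5 and edgeR. Which counter made which library is not given in the sources used here. The authors deposited, per the file headers, a mean FPKM per group, a ratio of treated over vehicle and an adjusted p-value for each comparison, with no value per pool. No model could therefore be fitted, and classes rest on the authors' calls. No column was left unmapped (0).

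FPKM means were compared as log2 quotients after adding 0.1 FPKM, less the median over genes at 1 FPKM or more (0.01 at 3 h, -0.06 at 27 h). Python 3.11.15, numpy 2.4.6, pandas 2.3.3 and matplotlib 3.10.9 were used, and the steps were tested on simulated data. Depth was read from FPKM steps in short genes, where 90.1% to 94.5% of low values per group lay within 0.1% of whole reads; it limits what low genes can show, and counting error alone is covered. P-values in the authors' deposited table judge the difference between treated and vehicle groups of 2 pools each. Every pool is a mix of mice, so the variation between single mice is not seen.

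Members and gene lists (37 lists, 846 of 849 symbols matched) were chosen with earlier results of these data known. Genes named were the 8 with the largest response per class (for sustained genes by the smaller of both responses), the 8 largest shifts in each direction, and up to 4 called members per list or all behind a count of 5 or fewer. Further genes, among them Mki67, Cdk1, Top2a, Hspa5, Gmnn and Nr1i3 and other list members, were chosen after their values were seen. Genes spanning under 300 bp were counted and not named. Coordinates are mm9; the table counts starts from 0 (928 of 943 miRNA spans then equal the RefSeq hairpin length), and 1 was added. Promoters are from RefSeq GRCm38.p6, and no coordinates were converted between builds.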

Additional observations from a re-analysis of the deposited data

How the results depend on the processing

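No paired analysis was possible because the table holds only group means, and for the same reason no pool could be left out. With an adjusted p below 0.01, 7 early transient lowered, 14 early transient raised, 395 late-only lowered and 15 sustained lowered genes were counted. With a response counted as small only up to 0.25 of the other, 6 early transient lowered genes were left. At a filter of 5 FPKM the counts were 3 early transient lowered, 11 early transient raised, 306 late-only raised and 22 sustained lowered genes, and 89 upward and 29 downward shifts of 2-fold or more. With no filter there were 508 upward and 361 downward shifts, and with a pseudocount of 1 FPKM 107 and 37. Of the recomputed counts 48 stayed within 1.5 times and 15 did not. Of the recomputed list medians 255 stayed within 1.5-fold and 4 did not: mitosis and G2/M at 0.64 with a pseudocount of 1 FPKM, and acute phase at -0.91, cholesterol synthesis at 1.05 and male-biased genes at -0.42 with the TCPOBOP groups alone. Taking the TCPOBOP groups alone, without vehicle, turned the sign of 9 named shifts of 2-fold or more: A1bg to 0.095, Cyp4a14 to 0.31, Fgf21 to -0.33, Jun to -0.017, Mup20 to -1.67, Mup21 to -0.57, Mup7 to -1.31, Onecut1 to -0.21 and Prss22 to -0.0089, which follows from leaving out their vehicle part. A further 134 recomputed shifts of the 188 named genes moved by more than 1.5-fold, 68 of them with the TCPOBOP groups alone, 43 with a pseudocount of 1 FPKM, 12 with 0.01 FPKM and 11 with the authors' ratios, while 1094 did not. Low values near a single read per gene and the missing spread between pools limit all small responses.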
